A study of Mus musculus with 8 samples.

Results

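The oligodendrocyte lineage transcription factors Olig1, Olig2, Sox10, Nkx2-2, Nkx6-2, Myrf, Sox8, Zfp488 and St18 were examined in mouse striatum. They were chosen by gene symbol, as factors of oligodendrocyte specification and myelination, and make up 9 of the 55032 genes measured. RNA sequencing was carried out on striatum dissected from female C57BL/6 mice at postnatal day 60, from 4 WT mice and from 4 16p11.2+/- mice. The 16p11.2+/- mice carry a heterozygous deletion of the chromosome 7 segment that corresponds to human 16p11.2 and model a copy number variant linked to autism spectrum disorder. The deletion is in every cell, not in a chosen cell type, and both groups were otherwise described alike, with no treatment. Each library came from 1 mouse, and the mice are named as in the labels, with the prefix WT or, for 16p11.2+/- mice, DF.

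Oligodendrocytes form the myelin sheaths that wrap axons, and they arise from precursor cells that persist in the adult brain. OLIG2 and OLIG1 are basic helix-loop-helix factors that set up the lineage, and OLIG2 works upstream of SOX10, an HMG-box factor that keeps lineage identity and turns on MYRF. MYRF is a membrane-bound factor that is cut to release a fragment which enters the nucleus and, with SOX10, drives the myelin genes. Bulk tissue mixes all of these stages, so that in RNA values alone fewer cells of a type and less RNA per cell cannot be told apart. By immunostaining, the study saw no difference between genotypes in striatal OLIG2+ or MYRF+ cell numbers at postnatal day 60 or in younger mice. Those are counts of cells stained for protein, not measures of RNA.

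All of the factors were detected and none changed in 16p11.2+/- striatum past an adjusted p of 0.05. The edgeR quasi-likelihood test with Benjamini-Hochberg adjustment over 18294 genes called 0 of the 9 lower and 0 higher, as did DESeq2. By edgeR, 20 genes in all were called, or 0.109% of those tested (0.0929% lower and 0.0164% higher), and DESeq2 called 31 genes, or 0.169%. The log2 fold change was negative for 8 of the 9 factors, against 51.8% of all genes tested, and its median over the factors was -0.17 against -0.01 over all genes. Among the negative factors, Olig2 and Nkx6-2 were at -0.01. The count of negative factors was 7 with DESeq2 and 6 in edgeR with library totals only. At an unadjusted p under 0.05, edgeR and DESeq2 each picked 1 factor, where edgeR picked 4.32% (2.37% lower and 1.95% higher) and DESeq2 4.66% of all genes. That factor in edgeR was Myrf, which was also the 1 factor whose 16p11.2+/- and WT values did not overlap, a pattern seen in 2.83% of all genes.

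**Figure D1:**
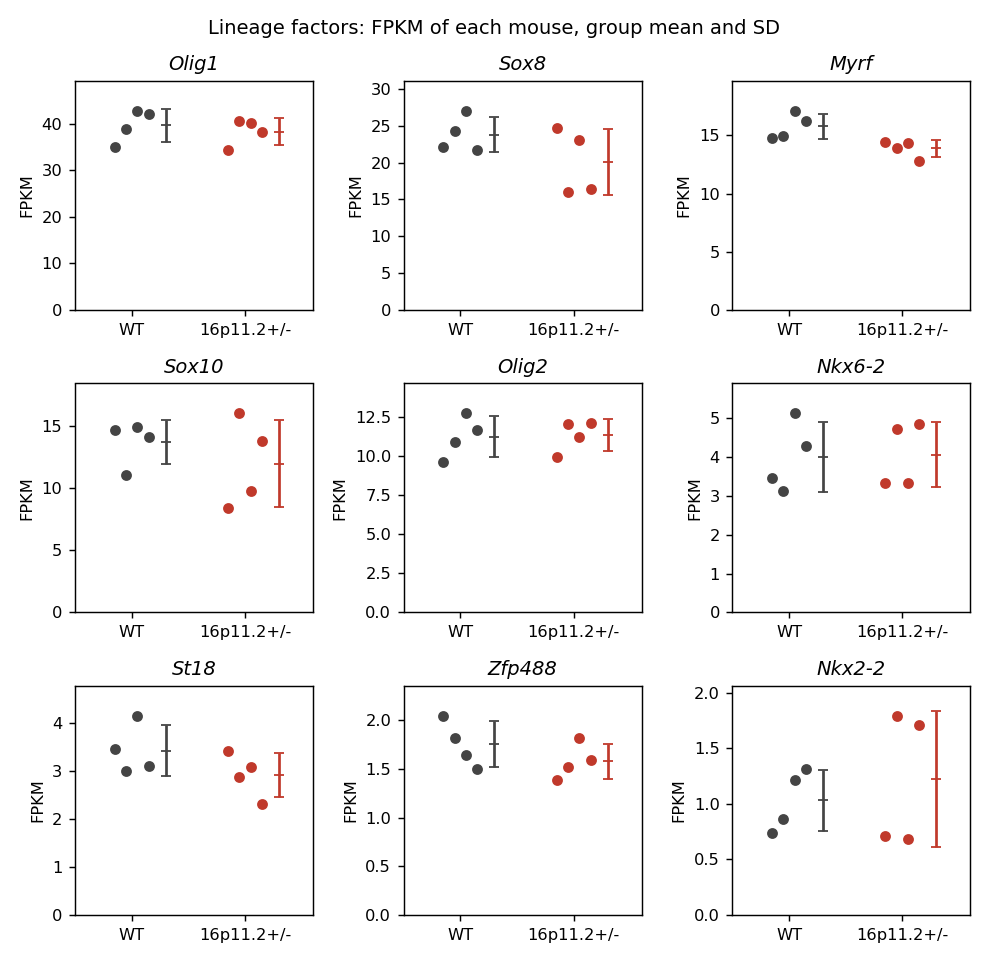
Level of each lineage factor in FPKM (vertical axes, each starting at 0) in the 4 WT and 4 16p11.2+/- mice, with points for mice and the group mean with its SD. The groups overlap for 8 of the 9 factors, and for Myrf all 4 16p11.2+/- mice lie below the 4 WT mice.

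Gene totals were close between libraries, from 15125051 to 16387993 counts in WT and from 15240680 to 16523429 in 16p11.2+/- mice. The deletion was visible in its own genes: Taok2 lay at 17.0 to 18.8 FPKM in WT and at 8.91 to 9.82 in 16p11.2+/- mice (log2 fold change -0.97, SE 0.07, edgeR adjusted p = 0.000777), and Mapk3 fell by 0.94 on the log2 scale (edgeR adjusted p = 0.00986). The tissue pieces were not alike. All 10 listed markers of medium spiny neurons, the main neurons of striatum, were present in every mouse, with Drd1 between 14.6 and 78.1 FPKM. The mean of their log2 CPM values (counts scaled by library depth, not by length) was 7.74 to 8.48 in WT mice and 8.43 and 8.27 in 16p11.2+/- mice DF-1018 and DF-1059, but 6.39 in mouse DF-1037 and 5.96 in mouse DF-1062. A score over 8 thalamic genes ran the other way, at 6.38 in mouse DF-1037 and 5.74 in mouse DF-1062, and it was also high in mouse DF-1018 (5.65) and mouse WT-1063 (6.35) against 3.31 to 3.84 in the remaining mice. Values that move with these scores are therefore given below with and without mice DF-1037 and DF-1062.

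The factors differ in their surroundings in the genome, which bears on how their reads were counted. Coordinates are from GENCODE M21 on GRCm38. Olig2 (chr16:91225457-91228677, plus strand) lies 41.1 kb from Olig1 (chr16:91269772-91271933, plus strand), which has a single exon. The other plus-strand gene is St18 (chr1:6487231-6860940). Sox10 (chr15:79154908-79165240), Myrf (chr19:10208272-10240748) and Zfp488 (chr14:33967070-33978764) are on the minus strand and share no exon bases with another gene. Nkx6-2 (chr7:139579376-139582797, minus strand) is 12.7 Mb from Taok2 and outside the deleted segment. Of the Nkx6-2 exon bases 12.9% are also in exons of Inpp5a on the opposite strand. Inpp5a had 967 to 1500 counts per mouse, against 91 to 160 for Nkx6-2. Of the Nkx2-2 exon bases (chr2:147177546-147194243, minus strand) 9.67% are in the antisense gene Nkx2-2os, which had 13 to 22 counts. For Olig1 the share was 7.26%, in Gm15966 on the opposite strand, which had 0 to 1 counts. The strand setting of the counting is not given in the sources used here, so that reads in such shared bases cannot be told apart.

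Sox8 (chr17:25565892-25570686, minus strand) overlaps an antisense gene at its start. Its antisense gene 2810468N07Rik (chr17:25570358-25575043, plus strand) shares 329 bases with the Sox8 exons, or 10.6% of them, and its own exons cover all 250 bases before the Sox8 start. These bases are shown because they are annotated as exon of the antisense gene, and the bases before the Nkx6-2 start are shown beside them as those of the other factor with over 10% of its exon bases in a gene on the opposite strand. Both windows are from RefSeq (GRCm38.p6), which matched 5 of the 9 factors (Nkx2-2, Nkx6-2, Olig2, Sox8 and Zfp488), and run 5′ to 3′ on the minus strand from 250 bases before the start to the last base before it, at chr17:25570687-25570936 for Sox8 and chr7:139582798-139583047 for Nkx6-2. Capitals mark the E-box CANNTG, the general letters bound by basic helix-loop-helix factors as a class, not a site of any 1 factor.
Sox8: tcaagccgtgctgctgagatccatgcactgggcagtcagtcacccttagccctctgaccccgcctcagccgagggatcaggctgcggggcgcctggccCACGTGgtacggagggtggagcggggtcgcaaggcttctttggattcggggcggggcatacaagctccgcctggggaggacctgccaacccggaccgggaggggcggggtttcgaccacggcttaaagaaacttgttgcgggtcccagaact
Nkx6-2: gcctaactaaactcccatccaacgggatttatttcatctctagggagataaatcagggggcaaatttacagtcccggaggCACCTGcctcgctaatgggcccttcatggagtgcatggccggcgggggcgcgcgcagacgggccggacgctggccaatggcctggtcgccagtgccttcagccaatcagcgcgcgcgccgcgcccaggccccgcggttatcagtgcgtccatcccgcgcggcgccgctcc
Each window holds 1 E-box, as 66.2% of 32851 promoter windows of this length hold at least 1. The letters ACAAAG, bound by SOX factors, were in neither window on either strand and are in 16.5% of all windows. The letters CTGGCAC and CTGGTAC, bound by MYRF, were in neither and are in 5.93%. GC content was 65.6% for Sox8 and 65.2% for Nkx6-2.

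Levels are given in FPKM, counts scaled by exon length and by library depth, which allows genes of unequal length to be compared. Olig1 was the highest of the factors at 39.0 FPKM over all 8 mice, above 94.7% of the genes tested. Sox8 followed at 21.9, Myrf at 14.8, Sox10 at 12.8 and Olig2 at 11.3 FPKM. Nkx6-2 (4.03), St18 (3.18), Zfp488 (1.66) and Nkx2-2 (1.13) were low. The ranges of neighbours in this order did not overlap between Olig1 and Sox8, between Olig2 and Nkx6-2, and between St18 and Zfp488. Sox8 was above Myrf in 8 of 8 mice, whereas the orders of Myrf and Sox10, of Sox10 and Olig2, of Nkx6-2 and St18, and of Zfp488 and Nkx2-2 each held in 6 of 8 mice, so that these neighbours are not separated by their spread.

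The lineage-founding factors were close to level between genotypes. Olig1 was 35.0, 39.0, 42.8 and 42.1 FPKM in WT mice WT-1015, WT-1041, WT-1061 and WT-1063, and 34.4, 40.6, 40.1 and 38.2 in 16p11.2+/- mice DF-1018, DF-1037, DF-1059 and DF-1062. The groups overlapped almost fully, with a log2 fold change of -0.07 (95% interval -0.27 to 0.12, edgeR adjusted p = 0.877). In the same order of mice, Olig2 was 9.64, 10.9, 12.7 and 11.7 FPKM in WT and 9.96, 12.1, 11.21 and 12.1 in 16p11.2+/- striatum. Its log2 fold change was -0.01 (95% interval -0.24 to 0.22, edgeR adjusted p = 0.984), and the lowest value of both groups was in a WT mouse. The ratio of Olig1 to Olig2 in FPKM was 3.15 to 3.63 over the 8 mice, a span of 1.153-fold. The intervals do not reach a change of 0.3 on the log2 scale in either direction.

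Sox10 varied more in 16p11.2+/- mice than in WT. It was 14.7, 11.1, 14.9 and 14.1 FPKM in WT mice WT-1015, WT-1041, WT-1061 and WT-1063, and 8.41, 16.0, 9.74 and 13.8 FPKM in 16p11.2+/- mice DF-1018, DF-1037, DF-1059 and DF-1062. Mice DF-1018 and DF-1059 lay below every WT mouse, and mouse DF-1037 lay above every WT mouse. The coefficient of variation was 12.9% in WT and 29.4% in 16p11.2+/- mice, where counting error gives 4.02%. With all mice the log2 fold change was -0.22 (SE 0.20, 95% interval -0.66 to 0.23, edgeR adjusted p = 0.860). Without mice DF-1037 and DF-1062, whose medium spiny neuron scores were low, it was -0.59 (SE 0.14), with an unadjusted p of 0.00464 by edgeR and an adjusted p of 0.995. This fit keeps only mice DF-1018 and DF-1059 of the 16p11.2+/- group. The mice left out had the highest Sox10 values of that group, so that a more negative value follows from leaving them out. With the medium spiny neuron score as a covariate the log2 fold change was -0.47 (unadjusted p = 0.0321 by edgeR). Both fits were added after the data had been seen, and the part of tissue makeup in the Sox10 values was not tested further. The adjusted p of Sox10 by the model of each fit was at least 0.743 in all 24 alternatives.

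Sox8, an HMG-box relative of Sox10 that acts with it in the lineage, showed the mirror image among the 16p11.2+/- mice. It was 22.1, 24.2, 27.0 and 21.8 FPKM in WT and 24.7, 16.0, 23.0 and 16.4 in 16p11.2+/- mice, again in order of mouse number. Mice DF-1037 and DF-1062 lay below every WT mouse, and the other two lay within the WT range. Its log2 fold change was -0.26 (95% interval -0.65 to 0.12, edgeR adjusted p = 0.859), and 0.01 without mice DF-1037 and DF-1062. The ratio of Sox10 to Sox8 in FPKM was 0.457 to 0.663 in WT mice, 0.340 and 0.423 in 16p11.2+/- mice DF-1018 and DF-1059, and 1.001 and 0.838 in mice DF-1037 and DF-1062, a span of 2.94-fold. The antisense gene 2810468N07Rik had 430, 521, 602 and 413 counts in WT and 401, 335, 482 and 307 in 16p11.2+/- mice, so that mice DF-1037 and DF-1062 were lowest for it as well. Its log2 fold change was -0.39 (edgeR adjusted p = 0.859), and its part in the Sox8 counts was not tested.

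Among the 16p11.2+/- mice, though not throughout the WT mice, the homeodomain factors Nkx2-2 and Nkx6-2 followed the Sox10 pattern. NKX2-2 acts in precursors as they begin to differentiate, and NKX6-2 acts in maturing oligodendrocytes. Nkx2-2 was 0.736, 0.863, 1.21 and 1.31 FPKM in WT and 0.707, 1.79, 0.685 and 1.71 in 16p11.2+/- mice, from as few as 31 counts in mouse DF-1018 to 81 in mouse DF-1062. Mice DF-1037 and DF-1062 exceeded every WT mouse, and mice DF-1018 and DF-1059 lay below every WT mouse. It was the 1 factor with a positive log2 fold change, 0.21 (SE 0.36, 95% interval -0.61 to 1.04, edgeR adjusted p = 0.912), and this turned to -0.56 without mice DF-1037 and DF-1062. Nkx6-2 was 3.47, 3.11, 5.12 and 4.28 FPKM in WT and 3.34, 4.72, 3.32 and 4.86 in 16p11.2+/- mice. The 16p11.2+/- values all lay inside the WT range, with a log2 fold change of -0.01 (95% interval -0.47 to 0.46) with all mice and -0.26 without mice DF-1037 and DF-1062.

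**Figure D2:**
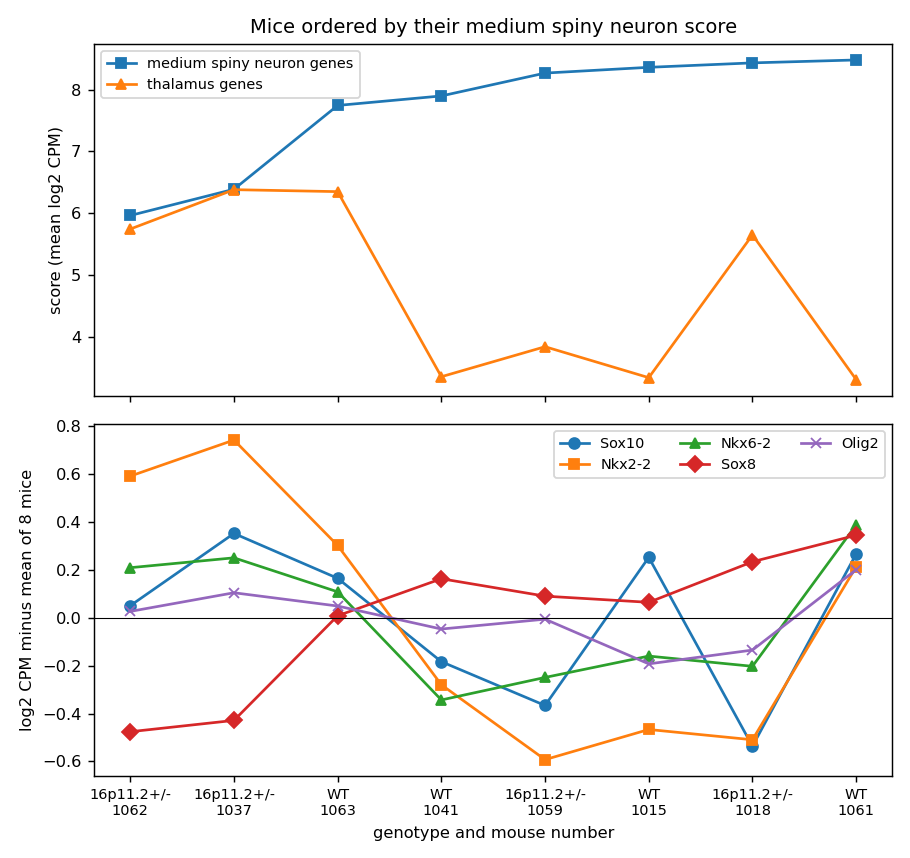
Upper panel, scores of tissue marker lists (mean log2 CPM) in the 8 mice ordered by their medium spiny neuron score; lower panel, log2 CPM of lineage factors minus their mean over the 8 mice. In mice DF-1062 and DF-1037, which have the lowest medium spiny neuron scores (5.96 and 6.39), Sox10, Nkx2-2 and Nkx6-2 are above and Sox8 below the other 16p11.2+/- mice.

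Myrf stood out by its small spread. It was 14.8, 14.96, 17.1 and 16.2 FPKM in WT and 14.4, 13.9, 14.4 and 12.8 in 16p11.2+/- mice. All 4 16p11.2+/- values lay below all 4 WT values, by a narrow gap between 14.4 and 14.8, as they did in 1.62% of all genes. The means were 15.8 ± 1.09 FPKM in WT and 13.9 ± 0.750 FPKM in 16p11.2+/- mice (SD, n = 4 each), and the fitted level was 86.9% of WT. The log2 fold change was -0.20 (SE 0.09, 95% interval -0.40 to -0.0031), with an unadjusted p of 0.0472 and an adjusted p of 0.859 by edgeR. The two-sided exact permutation test on FPKM gave p = 0.0286, the smallest that 70 assignments of 4 against 4 mice allow, and 0.889 after adjustment over all genes. Ordered by its edgeR p, Myrf was at rank 730 of 18294 genes. Without mice DF-1037 and DF-1062 the log2 fold change was -0.12 (unadjusted p = 0.183 by edgeR). With the mature oligodendrocyte score as a covariate it was -0.03 (unadjusted p = 0.823 by edgeR). That score was itself lower in 16p11.2+/- mice, at a median of 6.46 against 6.79 in WT. The same covariate lowered the number of genes called over all genes from 20 to 1. The fit therefore cannot separate this score from genotype, and what part the mature genes have in the Myrf difference was not tested. Over all 24 alternatives the unadjusted p of Myrf was under 0.05 in 7 and the adjusted p was at least 0.648.

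The remaining factors were low and overlapped between groups. ZFP488 is a zinc-finger protein that promotes oligodendrocyte differentiation with OLIG2. Zfp488 was 2.04, 1.82, 1.65 and 1.496 FPKM in WT and 1.39, 1.51, 1.82 and 1.59 in 16p11.2+/- mice. Its log2 fold change was -0.17 (95% interval -0.51 to 0.17, edgeR adjusted p = 0.859), and only DF-1018 lay below the WT range. St18, a zinc-finger gene of the Myt1 family, was 3.47, 2.999, 4.15 and 3.10 FPKM in WT and 3.41, 2.87, 3.09 and 2.32 in 16p11.2+/- mice. Its log2 fold change was -0.25 (95% interval -0.62 to 0.13, edgeR adjusted p = 0.859), or -0.07 without mice DF-1037 and DF-1062.

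**Figure D3:**
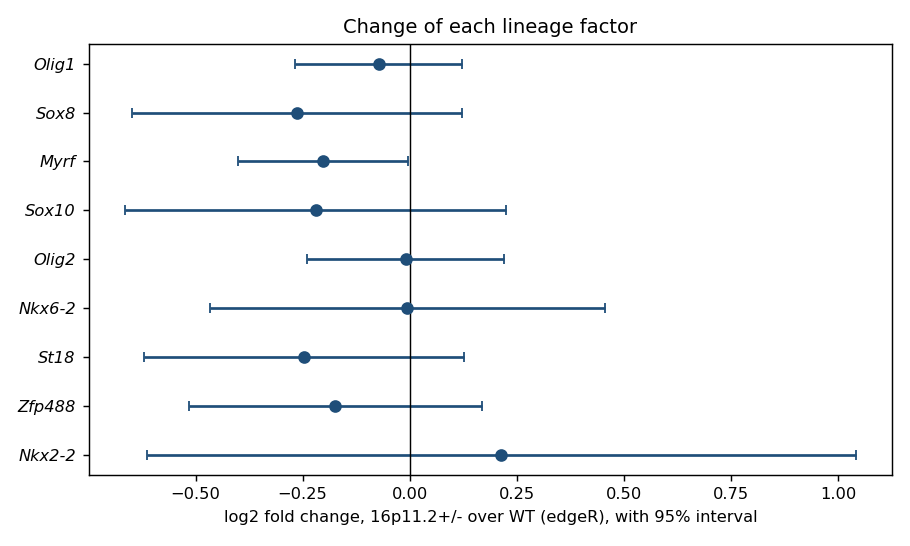
Log2 fold change of each lineage factor, 16p11.2+/- over WT, from edgeR with its 95% interval (horizontal axis). All intervals include 0 except that of Myrf, -0.40 to -0.0031, which is before any adjustment for the number of genes tested.

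Genes related to the factors by sequence gave no call. Of 9 listed paralogues, 6 could be tested and 3 had a negative log2 fold change (median -0.05, from -0.31 to 0.37), with 0 past an adjusted p of 0.05 by edgeR and 0 at an unadjusted p under 0.05. Olig3, Nkx6-1 and Myrfl were below the count filter, with 0 to 2, 0 to 3 and 1 to 5 counts per mouse. Sox9, the SOXE relative of Sox8 and Sox10 that in adult brain is known from astrocytes, was at 9.54 ± 1.05 FPKM in WT and 7.82 ± 2.17 FPKM in 16p11.2+/- mice (SD, n = 4 each), with a log2 fold change of -0.31 (edgeR adjusted p = 0.859).

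Regulators that work with or against the factors also gave no call, although single genes among them had wider values. Among 22 cofactors, 11 had a negative log2 fold change (median 0.00, from -0.36 to 0.86), and none passed the adjusted threshold by edgeR. The highest value was that of Tcf7l2, a Wnt effector that is also known from thalamic neurons and is named here for its value, at 1.04 to 18.2 FPKM in WT and 1.92 to 17.6 in 16p11.2+/- mice. The smallest unadjusted p belonged to Nfia, a nuclear factor I gene of glial development (log2 fold change -0.20, edgeR unadjusted p = 0.0450, adjusted p = 0.859). Tcf12, a partner of OLIG proteins, was next at -0.16 (edgeR unadjusted p = 0.0629). Among 14 inhibitors of differentiation, 10 had a negative log2 fold change (median -0.15, from -0.77 to 0.23), and none passed the adjusted threshold. TMEM98 binds MYRF and blocks its cleavage. Tmem98 ranged from 5.84 to 16.3 FPKM in WT and from 3.94 to 7.50 in 16p11.2+/- mice, overlapping groups with a log2 fold change of -0.77 (edgeR unadjusted p = 0.0468, adjusted p = 0.859). The WT values were widely spread (9.24 ± 4.73 FPKM, SD, n = 4), and the exact permutation p on FPKM was 0.0857. Gpr17, a receptor of cells about to differentiate, had a log2 fold change of 0.23 (edgeR unadjusted p = 0.0889).

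The factors were then set beside the genes of the cells that carry them. For each of the 20 listed genes of mature oligodendrocytes the log2 fold change was below 0 (median -0.33), but 0 of 20 passed the adjusted threshold by edgeR and 11 of 20 were at an unadjusted p under 0.05, against 2.37% of all genes in this direction. Hapln2, a protein of the node of Ranvier, had the smallest p of them (log2 fold change -0.43, edgeR adjusted p = 0.576). In 6 of the 20 genes all 16p11.2+/- mice lay below all WT mice, as in 1.62% of all genes tested. The list includes myelin genes that the study had already reported as lower in these same mice, so that these shares are not independent of that report. Of 10 precursor genes, 8 had a positive log2 fold change (median 0.05), and none was at an unadjusted p under 0.05. The factor median of -0.17 lay between these lists.

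Relative to the mature oligodendrocyte genes, which were themselves lower on average, Olig1 and Olig2 were higher in every 16p11.2+/- mouse than in any WT mouse. The measure was the log2 CPM of a factor minus the mean log2 CPM of the 20 mature genes in the same mouse. For Olig1 it was -0.54 to -0.24 in WT and -0.22 to 0.13 in 16p11.2+/- mice, and for Olig2 it was -2.17 to -1.84 in WT and -1.73 to -1.30 in 16p11.2+/- mice. These groups did not overlap, with mean differences of 0.29 for Olig1 and 0.36 for Olig2 and a two-sided exact permutation p of 0.0286 for each, the smallest possible, or 0.187 after adjustment over all genes. The subtracted mean itself was lower in 16p11.2+/- mice, at a median of 6.46 against 6.79 in WT. A gene with an unchanged log2 CPM therefore rises on this scale, and these values are no separate sign of a change in Olig1 or Olig2. Of all genes tested, 15.2% lay above every WT mouse in all 4 16p11.2+/- mice and 0.131% lay below. The position of Olig1 and Olig2 is thus shared by many genes. The other 7 factors overlapped between groups. All had a higher mean in 16p11.2+/- mice on this scale, and 2 of them differed by more than Olig1 and Olig2 but with a wider spread, Nkx2-2 by 0.48 (exact permutation p = 0.314) and Nkx6-2 by 0.37 (exact permutation p = 0.143). Zfp488 differed by 0.20, Myrf by 0.16 (exact permutation p = 0.114), Sox10 by 0.11, St18 by 0.11 and Sox8 by 0.07.

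**Figure D4:**
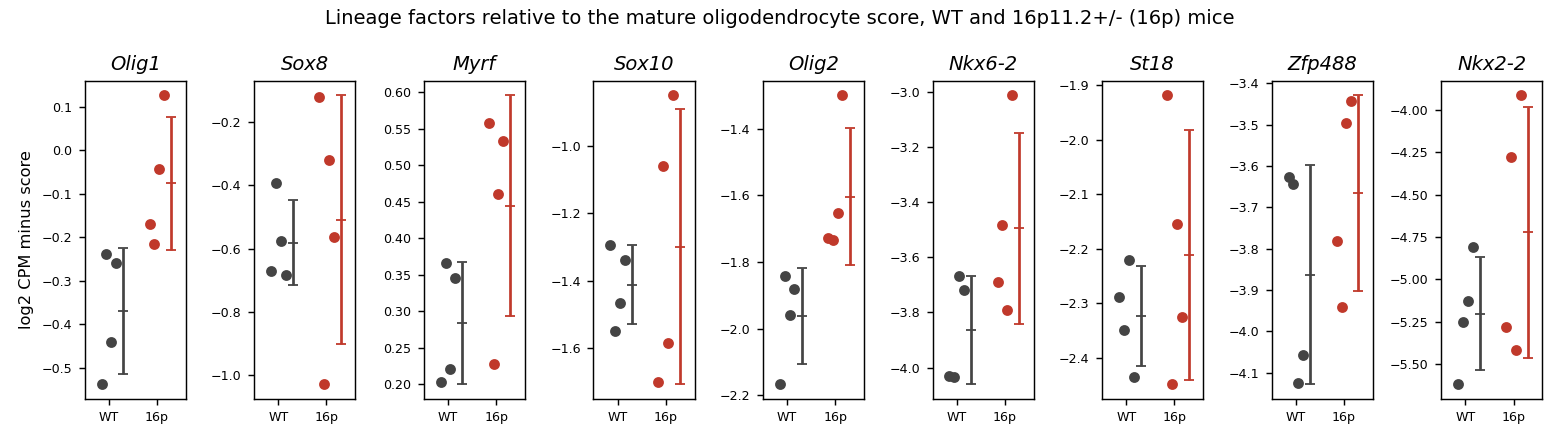
Log2 CPM of each lineage factor minus the mean log2 CPM of 20 mature oligodendrocyte genes (vertical axes, own scale for each factor) in 4 WT and 4 16p11.2+/- mice, with group mean and SD. The genotypes do not overlap for Olig1 and Olig2 (differences of 0.29 and 0.36) and overlap for the other factors. The subtracted mean was itself lower on average in 16p11.2+/- mice.

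The genes whose variation between mice was most like that of each factor were found from log2 CPM after subtraction of the group means over the 8 mice. They are a description, picked as the highest of all genes tested, with no p. Myrf was most like Dennd5a (Pearson r 0.994, Spearman rho 0.952, n = 8), Sox8 most like Ap1ar (r 0.992, rho 1), and St18 most like Picalm (r 0.990, rho 0.976). For Olig1 the gene was Tha1 (r 0.969, rho 0.952) and for Olig2 it was Tmem198b (r 0.982, rho 1). For Sox10 it was Arl5b (r 0.980, rho 0.929), for Nkx2-2 Evc (r 0.981, rho 0.976), for Nkx6-2 Sco1 (r 0.981, rho 1) and for Zfp488 Htr1f (r 0.980, rho 0.905). All genes of a mouse were measured in the same tissue piece, and the part of tissue makeup in these correlations was not tested.

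**Figure D5:**
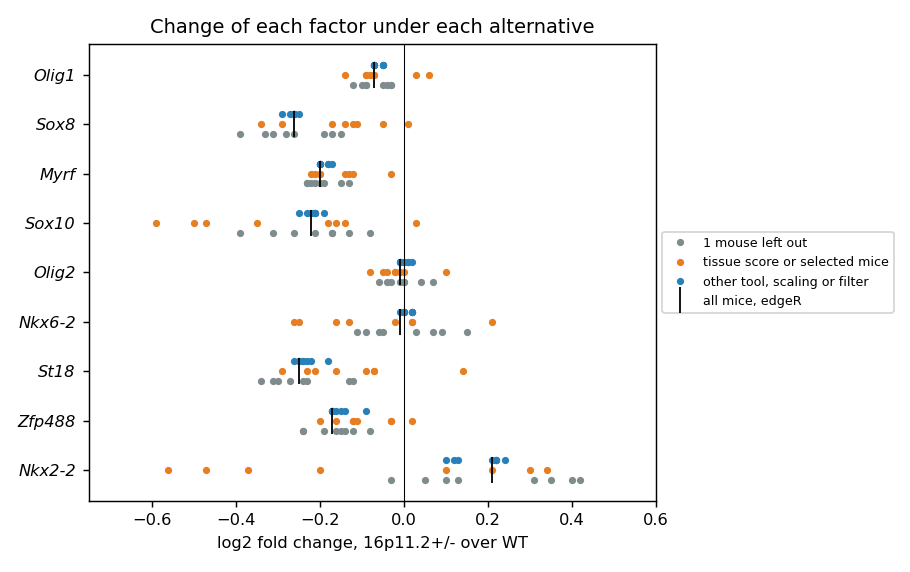
Log2 fold change of each lineage factor, 16p11.2+/- over WT (horizontal axis), under each alternative way of processing and choosing mice. Sox10 and Nkx2-2 reach -0.59 and -0.56 without mice DF-1037 and DF-1062, St18 reaches 0.14 with the mature oligodendrocyte score as a covariate, and Olig1 lies between -0.14 and 0.06.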

How the data were processed

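Striatal RNA of 8 mice was sequenced in paired-end libraries, and the authors deposited 1 table with read counts per gene and FPKM values per gene for every mouse. By the study's methods the authors aligned the reads with Hisat2 and counted them with Htseq-count, whereas the submitters' processing notes name Bowtie 0.12.2, mm8 and mm9. The deposited counts are whole numbers, and the authors computed FPKM from them. The gene lengths implied by FPKM equal GENCODE M21 exon lengths within 0.5% for 96% of 17376 genes. Strand setting and annotation are not given in the sources used here. Columns of the authors' own comparison (group means, fold changes, p-values) and a binned summary of FPKM were not used.

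Genes were filtered with filterByExpr (minimum count 10, minimum total 15), which left 18294, and tested with edgeR 4.0.16 (R 4.3.3; TMM, quasi-likelihood) on counts as deposited. Adjusted p-values are Benjamini-Hochberg over all genes tested. Exact two-sided permutation tests used FPKM over 70 assignments. Alternatives used DESeq2 1.42.0, limma 3.58.1 (voom, and trend on log2 FPKM with a pseudocount of 1 or 0.1), other scalings and filters, tissue scores as covariates, subsets of mice and each mouse left out. The fits on medium spiny neuron score (as a covariate, or only mice at 7 or more) were added after seeing the data. Scores are means of log2 CPM with a prior count of 2. Same-genotype libraries had a chi-square of 8.07 to 56 per degree of freedom where sampling noise alone gives about 1, and all 8 were kept as separate samples. The code was tested on simulated data.

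The factors and all gene lists were chosen with earlier results of these data known. The text names the 9 factors, at most 3 members of each other list (those past the adjusted threshold or with the smallest unadjusted p), members tied to a factor by paralogy or overlap, and the genes most alike each factor, of which the first of 2 is given. Drd1, Olig3, Nkx6-1 and Myrfl are named as checks or as genes below the filter. Counting error was taken from the mean count alone.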

Additional observations from a re-analysis of the deposited data

Results flagged for a closer look

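Of 34 groups of values examined, 1 held a mouse set apart from the rest of its group. The thalamus score of mouse WT-1063 was 6.35, whereas the other WT mice lay between 3.31 and 3.36. The gap took up 0.985 of the range of the group, above Dixon's critical value for 4 samples. Chance alone sets apart about 1 in 20 such groups. In this mouse Nkx2-2 was 1.31 FPKM, above every other WT mouse, and Sox8 (21.8 FPKM) and Zfp488 (1.496 FPKM) were below every other WT mouse. The remaining factors lay between the lowest and the highest of the other WT mice.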

How the results depend on the processing

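No paired analysis was possible because WT and 16p11.2+/- mice have no replicate number in common. Across 24 alternatives no factor passed the adjusted threshold in either direction. Of 216 alternative values for single factors, 184 kept their sign and 32 reversed. The count of factors with a negative log2 fold change went from 8 to 3, and their median from -0.17 to 0.0604, with the mature oligodendrocyte score as a covariate. The count at an unadjusted p under 0.05 went from 1 to 0 with RLE factors, with no filter, with the thalamus, choroid plexus, cortical neuron or mature oligodendrocyte score as a covariate, in mice with a thalamus score of 5 or more, and with limma-voom. With each mouse left out in turn this count was 0 to 2, being 2 without DF-1018, 1 without WT-1041 and 0 without any other mouse, and the count from the exact permutation test was 0 to 1, being 0 without any 1 of the 16p11.2+/- mice. The cause of these shifts was not tested.

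Values that turned sign were as follows. With the mature oligodendrocyte covariate, Olig1 was 0.06, Olig2 0.10, Sox10 0.03, Nkx6-2 0.21 and St18 0.14. Nkx2-2 was -0.20 with the thalamus covariate, -0.47 in mice with a thalamus score under 5 (where Olig1 was 0.03), -0.37 with the medium spiny neuron covariate and -0.56 in mice with that score at 7 or more (where Sox8 was 0.01). The subset under 5 leaves 1 16p11.2+/- mouse and that of 5 or more leaves 1 WT mouse, each assumed to vary like the other group. In mice with a thalamus score of 5 or more, Nkx6-2 was 0.02 and Zfp488 0.02. Olig2 was 0.01 with library totals, 0.01 on log2(FPKM + 1) and 0.02 on log2(FPKM + 0.1). Nkx6-2 was 0.00 with RLE, DESeq2 and limma-voom, and 0.02 with library totals, the choroid plexus covariate and both FPKM fits. With each mouse left out, Olig2 ranged from -0.06 to 0.07, Nkx2-2 from -0.03 to 0.42, Nkx6-2 from -0.11 to 0.15, Sox10 from -0.39 to -0.08, Sox8 from -0.39 to -0.15 and Myrf from -0.23 to -0.13 (edgeR unadjusted p from 0.0429 to 0.141, under 0.05 in 2 of 8 fits).

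Over all genes the number called was 20 with all mice, 31 with DESeq2, 1 with the mature oligodendrocyte covariate, 10 with the thalamus covariate, 3 and 0 in mice with a thalamus score under 5 and of 5 or more, 11 in mice with a medium spiny neuron score of 7 or more, and 8 to 18 with a mouse left out. Nkx2-2 had 31 to 81 counts per mouse, at which counting error alone gives a coefficient of variation of 13.95%, against an observed 26.7% in WT and 49.8% in 16p11.2+/- mice.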

Other observations

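Lists of other cell types were measured beside the factors. Log2 fold changes of 8 astrocyte genes had a median of 0.07 with 2 negative, those of 8 microglia genes a median of -0.11 with 6 negative, those of 8 cortical neuron genes a median of -0.55 with 7 negative, and those of 10 medium spiny neuron genes were all negative with a median of -0.52. All 8 thalamic genes had positive values, with a median of 0.71. Of 8 choroid plexus genes 6 could be tested, all with negative values and a median of -2.74, and the score of this list was between 1.71 and 7.95 in WT and between 2.51 and 3.64 in 16p11.2+/- mice. No member of these lists passed an adjusted p of 0.05 by edgeR, and 3 choroid plexus genes were lower at an unadjusted p under 0.05, against 2.37% of all genes. The choroid plexus score was highest, at 7.95, in mouse WT-1063. The part of these tissue differences in the values of the lineage factors was not tested beyond the covariate fits given here.

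The cofactor Smarca4, a chromatin remodelling ATPase named here after its values were seen, lay at 22.7 to 23.4 FPKM in WT and at 23.4 to 26.1 in 16p11.2+/- mice, with a gap that vanishes at this rounding (23.35 and 23.395 before it). The log2 fold change was 0.06 (SE 0.06, edgeR unadjusted p = 0.321, adjusted p = 0.864) and the exact permutation p was 0.0286, where 1.21% of all genes lay above WT in this way.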
